A study of Mus musculus with 16 samples.

Results

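The 36 imprinted genes described here were chosen by name, from a list of mouse genes known to be expressed from the maternal or the paternal allele. Regions of the study's union table of 5-hydroxymethylcytosine (5hmC) peaks were taken where the table's gene symbol was a listed gene. That gave 298 of 177720 regions, with a median width of 681 bases and 415.324 kb in all, assigned to 22 of the 36 genes among 15544 gene symbols in the table. Of the 298 regions, 226 held enough reads to be tested one by one, and all 22 genes held enough once their regions were summed. No region of the table carried the symbols Igf2, Peg3, Zim1, Peg10, Sgce, Peg13, Kcnk9, Snrpn, Ndn, Magel2, Mkrn3, Kcnq1ot1, Nap1l5 or Zrsr1, and these 14 genes were not analysed here as gene sums. For some of them the nearest transcription start of a region was theirs although the region was counted under a neighbour: 45 regions nearest to Peg13 and 2 nearest to Kcnk9 stood under Trappc9, 15 nearest to Kcnq1ot1 under Kcnq1, and 2 nearest to Zrsr1 under Commd1.

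The study mapped 5hmC in mouse CD4 T cells to ask how vitamin C and the TET enzymes bear on regulatory T cells (Treg). All cells came from the spleen and lymph nodes of C57BL/6 mice of 5 to 6 weeks that carried a Foxp3-eGFP reporter, in which cells expressing Foxp3 are green. The sort for naive T cells took CD4+eGFP-CD25-CD62LhiCD44lo cells, while Treg were the CD4+eGFP+ cells; these groups came straight from the mice. Induced Treg (iTreg) were differentiated from CD4+ naive T cells in culture, with TGFβ alone or with TGFβ plus vitamin C (VitC) and retinoic acid (RA). RA and vitamin C were always given together, so their separate effects cannot be told apart, and sorting straight from the mouse cannot be told apart from the absence of culture. Inputs and pull-downs were sequenced as 2 libraries each in all 4 groups. Whether those libraries came from separate mice or cultures is not stated in the labels, so each p-value measures only the spread between these libraries. In the labels, TGFb and RA+VitC iTreg libraries of the same replicate number share a code whose meaning is not given. The main test did not pair them.

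In CMS-IP, bisulfite turns 5hmC into cytosine-5-methylenesulfonate, and an antiserum to that product pulls down the fragments that carry it. Imprinted genes are silent on the allele from a particular parent, and most lie in clusters governed by a differentially methylated region (DMR) whose methylation is set in the egg or sperm and kept through later life. TET enzymes oxidise 5-methylcytosine to 5hmC, with vitamin C as a cofactor, and 5hmC is also common across the bodies of genes that a cell transcribes. The pull-down does not separate the parental alleles or the DNA strands. A rise in 5hmC therefore cannot be assigned to an allele, nor to 1 of several overlapping transcripts.

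The pull-downs held 1648804 to 9731897 reads in regions and the inputs 1028822 to 1563165. Read totals were lowest in the TGFb iTreg pull-downs, whose reads were 1.49 and 1.72 times those of their inputs, against 4.90 to 6.39 times in the sorted cells and 3.14 and 3.88 times in the RA+VitC iTreg. Values are given as counts per 1e6 reads (CPM), scaled so that most genes do not shift between libraries. They are relative, since the spiked amplicons were not used here. Spread between replicate pull-downs was close to counting error, with a chi-square of 1.12 to 1.23 per degree of freedom. Across the inputs, none of the 20 imprinted genes and none of the 64 regions that could be tested passed an adjusted p of 0.05 in any comparison (edgeR), while at an unadjusted p under 0.05 there were 1, 2, 0 and 0 genes and 3, 4, 2 and 0 regions. All 5 Treg marker genes listed rose in Treg, and Foxp3 itself did not pass the test in TGFb iTreg over naive cells. Of 5 T cell marker genes 4 were lower in Treg and 5 in each iTreg than in naive cells, and their sum stood at 755 and 732 CPM in naive cells, 596 and 625 in Treg, 382 and 502 in TGFb iTreg, and 533 and 538 in RA+VitC iTreg. Of 4 CD8 and NK marker genes with regions 3 were lower in each group than in naive cells, and their sum stood at 294 and 297 CPM in naive cells, 245 and 235 in Treg, 133 and 130 in TGFb iTreg, and 101 and 108 in RA+VitC iTreg. Markers of other lineages did not all fall. Of 5 B cell marker genes 2 were higher and 0 lower in Treg than in naive cells, and 1 was higher and 1 lower in each iTreg. Their sum stood at 88.3 and 93.4 CPM in naive cells and 101 and 105 in Treg. Of 4 myeloid marker genes tested 0 were higher and 1 lower in Treg, and 1 was higher and 1 lower in each iTreg. The part of other cells in the results below was not tested.

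In most mammalian cells 5hmC is made from methylated CpG, so CpG content bears on where it can form. The windows below are the 250 bases before the RefSeq transcription start (build GRCm38.p6), 5′ to 3′ on the gene's strand with each CpG in capitals. They are shown for Plagl1 and Inpp5f, whose 5hmC rose in the sorted Treg, and for Igf2r and Airn, the sense and antisense genes of 1 cluster. The coordinates are chr10:13090582-13090831 (plus strand) for Plagl1, chr17:12769707-12769956 (minus) for Igf2r, chr17:12741061-12741310 (plus) for Airn and chr7:128611115-128611364 (plus) for Inpp5f. This build differs from the mm9 build of the 5hmC regions, so the windows were not matched to regions.
Plagl1: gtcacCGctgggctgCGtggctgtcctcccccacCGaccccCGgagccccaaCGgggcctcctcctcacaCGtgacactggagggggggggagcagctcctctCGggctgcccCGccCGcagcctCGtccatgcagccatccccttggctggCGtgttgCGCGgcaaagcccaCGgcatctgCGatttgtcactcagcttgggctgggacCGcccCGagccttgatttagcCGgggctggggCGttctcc
Igf2r: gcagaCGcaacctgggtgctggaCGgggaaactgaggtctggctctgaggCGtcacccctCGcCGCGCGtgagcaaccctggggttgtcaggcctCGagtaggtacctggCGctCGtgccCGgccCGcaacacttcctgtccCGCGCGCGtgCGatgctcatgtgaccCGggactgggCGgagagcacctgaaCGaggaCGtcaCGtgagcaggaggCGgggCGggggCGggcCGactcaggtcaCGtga
Airn: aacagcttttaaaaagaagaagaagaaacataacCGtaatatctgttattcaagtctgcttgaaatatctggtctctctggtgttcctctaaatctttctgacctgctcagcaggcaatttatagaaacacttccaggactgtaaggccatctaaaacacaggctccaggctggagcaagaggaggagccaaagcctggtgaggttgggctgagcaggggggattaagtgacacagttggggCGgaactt
Inpp5f: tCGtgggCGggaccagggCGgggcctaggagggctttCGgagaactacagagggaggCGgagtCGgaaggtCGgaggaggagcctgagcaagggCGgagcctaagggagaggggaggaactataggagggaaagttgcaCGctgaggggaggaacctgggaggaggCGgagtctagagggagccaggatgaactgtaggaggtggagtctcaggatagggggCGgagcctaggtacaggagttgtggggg
The Igf2r window holds 27 CpG and the Plagl1 window 19, at the 91.4th and 80.3rd percentile of 32851 promoter windows, whose median is 6. Inpp5f has 11. Airn has 2, at the 18.8th percentile. The window ends at the start, so this count does not cover the Airn DMR as a whole. The letters TGCCGC, a motif bound by the imprint-protecting factor Zfp57 when it is methylated, were found on either strand once in the Plagl1 window and in none of the other windows shown. They occur in 8.68% of all such windows. H19 gives rise to a microRNA, shown because H19 had the largest change in RA+VitC iTreg; the seed (bases 2 to 8) is in capitals and the sequences are RefSeq's.
mmu-miR-675-5p: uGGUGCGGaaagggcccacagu
mmu-miR-675-3p: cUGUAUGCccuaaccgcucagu

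Imprinted genes did not move as a block. Their gene sums went both ways in all comparisons, and the largest changes were held by a few loci. H19 was 20.2-fold higher in RA+VitC iTreg than in naive cells, and Plagl1 was 2.70 to 3.42 times its naive level in Treg and both kinds of iTreg. The sums of Meg3 and Dlk1 fell in Treg and in RA+VitC iTreg. Of their reads 19% and 6.49% lay on the transcript, and the rest in regions around it. Igf2r rose in Treg and in RA+VitC iTreg, and Inpp5f in Treg. In Treg over naive cells 8 of the 22 gene sums were higher and 4 lower at an adjusted p under 0.05 (edgeR quasi-likelihood test, Benjamini-Hochberg over 14952 gene sums), where 20.0% of all gene sums were higher and 19.2% lower. TGFb iTreg over naive cells gave 7 higher and 1 lower, against 23.4% and 18.2%. RA+VitC iTreg over naive cells gave 10 higher and 5 lower, against 29.2% and 26.6%. RA+VitC over TGFb iTreg gave 3 higher and 5 lower, against 12.4% and 10.7%. The median log2 fold changes of the 22 genes were 0.07, 0.15, 0.18 and 0.09 in that order, beside -0.00, -0.02, -0.02 and -0.00 for all gene sums. The 3 comparisons with naive cells share the naive libraries, so their values are set side by side only. Values in the 2 groups did not overlap for 18, 13, 18 and 14 of the 22 genes, against 68.1%, 70.2%, 76.9% and 57.8% of all gene sums. The genes higher in TGFb and in RA+VitC iTreg over naive cells include Rian and Mirg. Both reached the count filter only through iTreg libraries, so their calls are not support on their own.

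**Figure D1:**
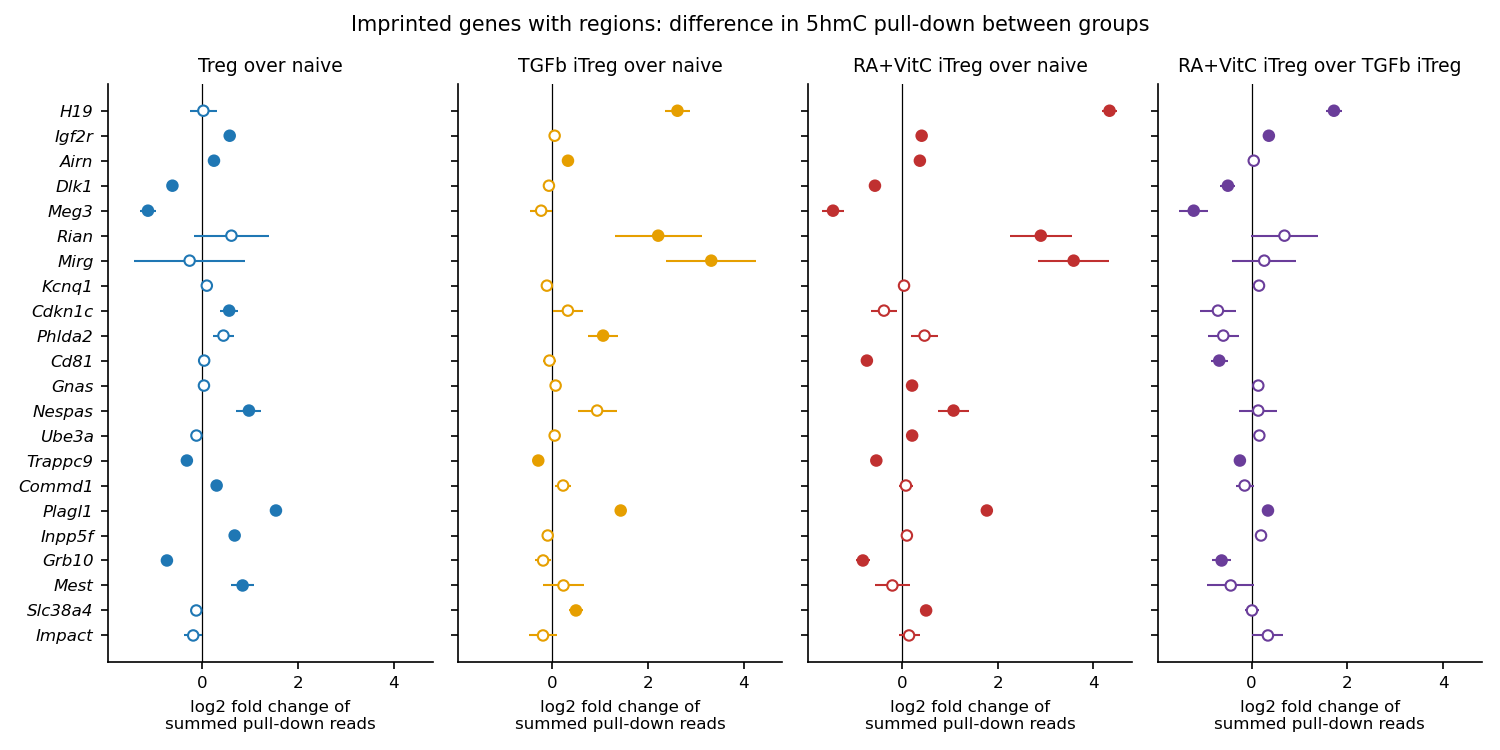
Log2 fold change of each imprinted gene with regions in the 4 comparisons, as points with the standard error of the edgeR fit; filled points have an adjusted p under 0.05. H19 reaches 4.34 in RA+VitC iTreg over naive cells and Plagl1 lies between 1.43 and 1.77 in the comparisons with naive cells, while Meg3 lies at -1.13 in Treg and -1.44 in RA+VitC iTreg.

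Region by region, Treg over naive cells had 47 of 226 regions higher and 26 lower, where 13% of all 135412 regions tested were higher and 10.1% lower. TGFb iTreg over naive cells had 22 higher and 15 lower (13.1% and 8.28% of all). RA+VitC iTreg over naive cells had 47 higher and 38 lower (21.9% and 15.8%), and RA+VitC over TGFb iTreg 13 higher and 6 lower (4.60% and 1.98%). With plain library-size scaling, in RA+VitC iTreg over naive cells the median log2 fold change of all regions was -0.26 in place of -0.04 and that of all gene sums -0.17 in place of -0.02. In RA+VitC over TGFb iTreg the medians were -0.17 in place of 0.02 and -0.11 in place of -0.00. On that scale the regions split 39 higher to 62 lower and 8 higher to 10 lower in those comparisons, so the balance of directions in the RA+VitC iTreg depends on the scaling. Fold changes below are relative to the bulk of all genes.

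H19 encodes a long non-coding RNA made from the maternal allele, reciprocal to the growth factor Igf2 on the paternal allele. With a mean of 83.6 reads it falls under the 100 reads set for naming a gene, and it was chosen after its values were seen, for its change in RA+VitC iTreg. H19 held 2.39 and 4.36 CPM in naive cells, 4.17 and 2.96 in Treg, 16.0 and 26.0 in TGFb iTreg, and 67.8 and 73.9 in RA+VitC iTreg. The sorted cells overlapped each other, every TGFb iTreg library was above them, and every RA+VitC iTreg library was above the TGFb iTreg. Log2 fold changes over naive cells were 0.02 ± 0.28 (SE; adjusted p = 0.96) in Treg, 2.62 ± 0.27 (9.5e-16) in TGFb iTreg and 4.34 ± 0.17 (8.7e-51) in RA+VitC iTreg. RA+VitC exceeded TGFb iTreg by 1.72 ± 0.17 (2.3e-15). Input reads over the same regions lay between 19 and 39 in all 8 inputs. As pull-down over input, H19 stood at the 0.235th percentile of 9781 genes in naive cells and at the 0.0511th in Treg, then at the 37.7th in TGFb iTreg and the 98.8th in RA+VitC iTreg.

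The H19 rise was found at each of its 3 tested regions (mm9). The region chr7:149760511-149764770 covers the promoter and the whole gene: it held 1.41 and 2.26 CPM in naive cells, 2.68 and 1.18 in Treg, 3.57 and 8.48 in TGFb iTreg, and 33.1 and 35.0 in RA+VitC iTreg. Here RA+VitC iTreg stood far above all other libraries, by 4.16 ± 0.22 on the log2 scale over naive cells (adjusted p = 3.6e-77) and by 2.44 ± 0.27 over TGFb iTreg (3.7e-17). The TGFb iTreg rise over naive cells of 1.72 ± 0.42 (0.0005) rested on replicate 2: without it the value was 0.89 with an adjusted p of 0.51, and after thinning to equal depth 0.91 with 0.25. Downstream of the gene, chr7:149756550-149759546, centred 5.97 kb after the start, held 0.641 and 0.925 CPM in naive cells, 1.02 and 1.18 in Treg, 8.34 and 12.0 in TGFb iTreg, and 25.5 and 27.5 in RA+VitC iTreg. The groups formed a ladder without overlap from sorted cells to TGFb iTreg to RA+VitC iTreg, with 3.65 ± 0.42 (3.7e-16) and 5.01 ± 0.28 (6.5e-70) over naive cells for the iTreg and 1.36 ± 0.25 (5e-06) between them. This downstream region reached the count filter only through iTreg libraries, where it was high. Its p-values over naive cells are therefore not support on their own. The third tested region, chr7:149790722-149792094, lies 27.4 kb before the start, with 2.59 and 3.81 over naive cells. It too reached the count filter only through iTreg libraries. Between the gene and the next region upstream, the table held no region of any gene over 21.1 kb, which is where the paternally methylated control region of H19 and Igf2 is known to lie. Downstream, Nctc1, a neighbouring non-coding gene, showed the same order of values at its region chr7:149749544-149751445. It rose by 3.02 and 3.88 on the log2 scale in TGFb and RA+VitC iTreg over naive cells. The difference between the iTreg, 0.87 ± 0.36 (adjusted p = 0.067), did not pass the test. Nctc1 also reached the count filter only through iTreg libraries, so its rise over naive cells is not support on its own. The 5 consecutive regions from the Nctc1 region to the upstream region span 42.5 kb.

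**Figure D2:**
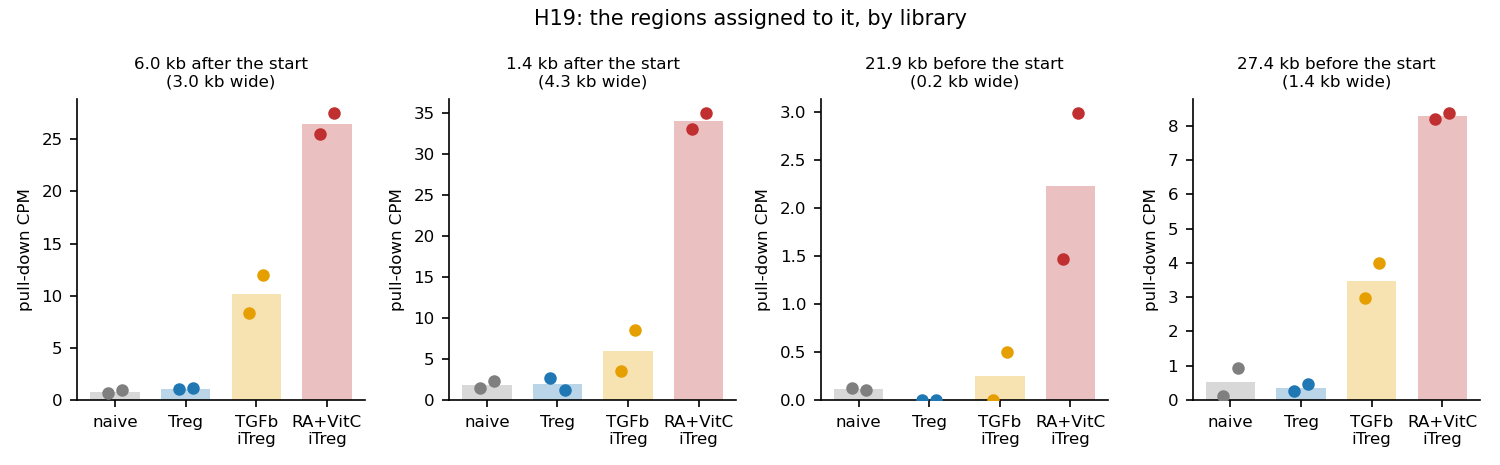
Pull-down CPM of the 4 H19 regions, 1 panel each with its own axis from 0; bars are the mean of the 2 libraries of a group, points the libraries, and titles give the distance of the region's centre from the H19 start. RA+VitC iTreg libraries lie highest at the gene itself (33.1 and 35.0 CPM) and downstream of it (25.5 and 27.5); the region 21.9 kb before the start was too sparse to test.

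Igf2r encodes the receptor that takes up Igf2 for destruction and is made from the maternal allele. Airn is the antisense long non-coding RNA that starts in an intron of Igf2r, at a maternally methylated DMR, and silences Igf2r in cis on the paternal allele. Igf2r held 262 and 279 CPM in naive cells, 399 and 406 in Treg, 263 and 296 in TGFb iTreg, and 380 and 341 in RA+VitC iTreg. Treg and RA+VitC iTreg stood above all naive and TGFb iTreg libraries. The log2 fold changes were 0.57 ± 0.05 (adjusted p = 2.2e-20) for Treg and 0.41 ± 0.05 (3.5e-11) for RA+VitC iTreg over naive cells, and 0.36 ± 0.07 (1e-05) between the iTreg, while TGFb iTreg over naive cells gave 0.05 ± 0.07 (0.54). The regions that passed the test lay in different stretches of the gene. At the 3′ end, chr17:12874572-12888311 held 49.6 and 54.2 CPM in naive cells, 115 and 115 in Treg, 39.9 and 48.9 in TGFb iTreg, and 59.5 and 53.2 in RA+VitC iTreg. The Treg libraries were the highest there, by 1.14 ± 0.08 over naive cells (1.5e-40) against 0.12 ± 0.11 (0.43) for RA+VitC iTreg. The region of 28032 bases over the 5′ end, chr17:12935464-12963495, holds 50.4% of the Igf2r reads, with 138 and 146 CPM in naive cells, 155 and 168 in Treg, 136 and 162 in TGFb iTreg, and 236 and 213 in RA+VitC iTreg. At that end RA+VitC iTreg was the highest, by 0.66 ± 0.08 over naive cells (1.6e-15) and 0.58 ± 0.10 over TGFb iTreg (2.4e-07), and Treg gave 0.18 ± 0.07 (0.056). Both regions were picked after their values were seen. The 5′ region lies between the region on the Airn promoter, described next, and the regions carrying the symbol Airn. Its change therefore cannot be assigned to Igf2r rather than to Airn.

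The region on the Airn promoter, chr17:12931020-12934515, stands under Igf2r in the table because it lies within that gene. It held 7.18 and 6.58 CPM in naive cells, 9.58 and 10.4 in Treg, 9.53 and 3.99 in TGFb iTreg, and 8.20 and 7.17 in RA+VitC iTreg. Treg libraries were above the naive ones, by 0.55 ± 0.19 (adjusted p = 0.019), and the TGFb iTreg libraries lay far apart. That call was lost with DESeq2 (0.54, 0.41), without naive replicate 2 (0.47, 0.19), without naive replicate 1 (0.59, 0.057) and without Treg replicate 2 (0.49, 0.13). Regions carrying the symbol Airn left out the stretch of Airn within Igf2r. They held 106 and 104 CPM in naive cells, 124 and 125 in Treg, 131 and 133 in TGFb iTreg, and 133 and 140 in RA+VitC iTreg. Every Treg and iTreg library exceeded the naive libraries, by 0.24 ± 0.06 (0.00049), 0.33 ± 0.09 (0.00076) and 0.38 ± 0.07 (1.7e-06). Among its regions, chr17:12971032-12979105 rose in TGFb iTreg (0.97 ± 0.15, 1.5e-09) and RA+VitC iTreg (0.74 ± 0.13, 9.2e-08), with -0.18 ± 0.12 in Treg.

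**Figure D3:**
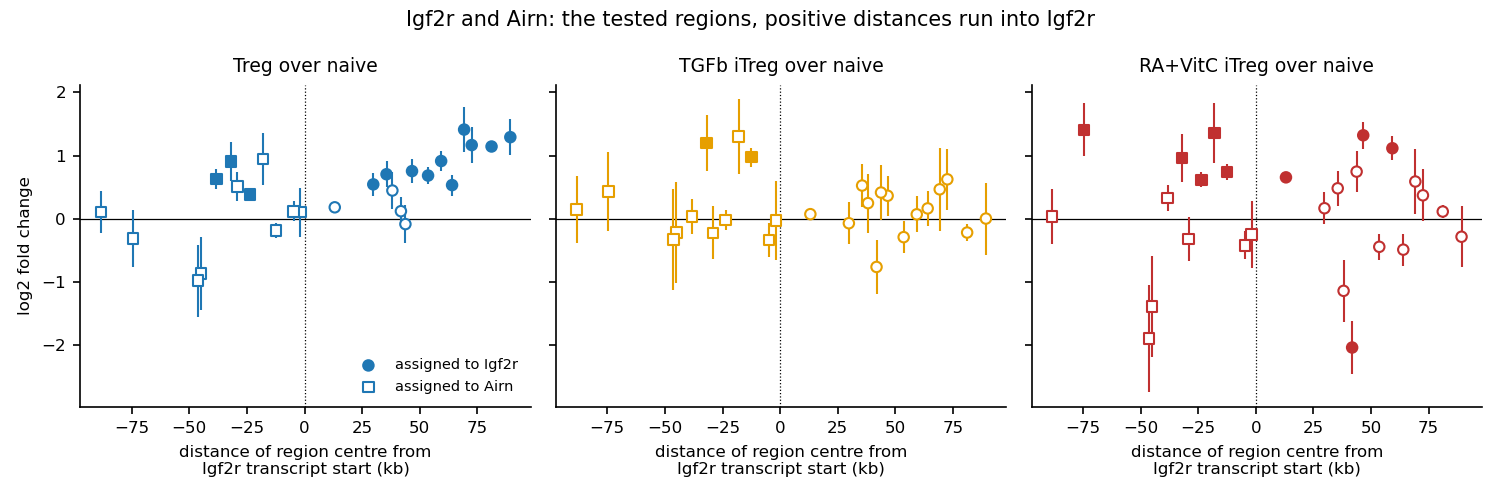
Log2 fold change over naive cells of each tested Igf2r and Airn region against its distance from the Igf2r start in kb, with positive distances running into Igf2r; there is 1 panel per group, bars are standard errors, circles are Igf2r and squares Airn regions, and filled points have an adjusted p under 0.05. Treg points at the 3′ end of Igf2r lie above 0 (1.14 for the widest region there), and the RA+VitC iTreg panel has a filled point at the 5′ end (0.66).

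At the Dlk1-Meg3 cluster, Dlk1 encodes a Notch-like membrane protein made from the paternal allele, and Meg3, Rian and Mirg are non-coding RNAs made from the maternal allele. The paternally methylated control region of the cluster lies between Dlk1 and Meg3. Meg3 (mean of 62 reads, under the naming limit and described after its values were seen) held 15.8 and 17.6 CPM in naive cells, 7.66 and 7.64 in Treg, 15.4 and 13.5 in TGFb iTreg, and 6.40 and 5.98 in RA+VitC iTreg. Every Treg and RA+VitC iTreg library lay below every naive and TGFb iTreg library. Meg3 fell by 1.13 on the log2 scale in Treg (SE 0.16, adjusted p = 2.1e-09; -0.82 and 0.074 after thinning to equal depth), by 1.44 in RA+VitC iTreg (SE 0.22, 7.9e-09), and by 1.21 in RA+VitC over TGFb iTreg (SE 0.30, 0.0011), while TGFb iTreg over naive cells gave -0.23 ± 0.22 (0.44). The transcript itself carried 19% of the reads, and the fall lay in regions before its start. There chr12:110763398-110765192 held 5.77 and 5.65 CPM in naive cells, 1.66 and 2.13 in Treg, 5.36 and 5.49 in TGFb iTreg, and 1.46 and 0.598 in RA+VitC iTreg, with changes of -1.57, -0.07 and -2.44 over naive cells. Summed over transcript regions alone, Meg3 gave positive values of 0.53 in Treg (adjusted p = 0.3), 0.64 in RA+VitC iTreg (0.26) and 1.65 in RA+VitC over TGFb iTreg (0.17).

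Dlk1 held 50.5 and 52.5 CPM in naive cells, 34.8 and 32.3 in Treg, 43.0 and 54.6 in TGFb iTreg, and 29.7 and 40.4 in RA+VitC iTreg. Treg and RA+VitC iTreg lay below all naive and TGFb iTreg libraries. It fell by 0.62 in Treg (SE 0.09, adjusted p = 6.9e-09) and by 0.56 in RA+VitC iTreg (SE 0.11, 1e-05; -0.25 and 0.3 after thinning), and its change in TGFb iTreg was -0.07. The fall of 0.50 in RA+VitC over TGFb iTreg (SE 0.16, 0.011) was lost without TGFb iTreg replicate 2 (-0.30, adjusted p = 0.4) and without RA+VitC iTreg replicate 1 (-0.28, 0.3), and the value was 1.11 (0.44) over the transcript alone, which holds 6.49% of the reads. A region before the Dlk1 start went the other way in TGFb iTreg: chr12:110682292-110683966 held 4.74 and 4.93 CPM in naive cells, 3.19 and 2.36 in Treg, 11.3 and 17.0 in TGFb iTreg, and 4.69 and 5.38 in RA+VitC iTreg. Only the TGFb iTreg libraries were high, by 1.56 ± 0.28 over naive cells (5e-07), and RA+VitC over TGFb iTreg gave -1.51 ± 0.32 (0.00018; -1.11 and 0.18 without TGFb iTreg replicate 2). Rian and Mirg had 1 sparse region each and are named after their values were seen. Rian held 4 and 3 reads in naive cells, 8 and 2 in Treg, 3 and 4 in TGFb iTreg, and 10 and 12 in RA+VitC iTreg. Mirg held 1 and 3, 1 and 2, 1 and 8, and 13 and 8 reads in the same order. Both passed the test in RA+VitC iTreg over naive cells (adjusted p = 5.2e-05 for Rian and 1.3e-05 for Mirg). They reached the count filter only through iTreg libraries, where they were high, so these p-values are not support on their own. The Mirg region did not overlap its transcript. The TGFb iTreg call of Mirg (0.0021) rested on replicate 2 (0.68 without it). That of Rian (0.039) was lost with DESeq2 (0.058) and without either TGFb iTreg replicate (0.13 and 0.23) or either naive replicate (0.051 and 0.15), and without RA+VitC iTreg replicate 2 (0.051).

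In the Kcnq1 cluster, silenced in cis on the paternal allele by the antisense RNA Kcnq1ot1, the potassium channel gene Kcnq1 passed no test as a sum. Its 70.5 and 65.9 CPM in naive cells, 74.6 and 70.8 in Treg, 56.4 and 68.6 in TGFb iTreg, and 68.3 and 72.1 in RA+VitC iTreg lay close together, with log2 fold changes of 0.09, -0.11, 0.05 and 0.15. Within it, an intronic region picked after its values were seen, chr7:150553149-150554665, held 3.08 and 3.19 CPM in naive cells, 8.82 and 6.97 in Treg, 6.55 and 14.0 in TGFb iTreg, and 13.2 and 14.4 in RA+VitC iTreg. All libraries were above the naive ones there, by 1.32 ± 0.23 (adjusted p = 5.4e-07), 1.75 ± 0.33 (2e-06) and 2.13 ± 0.25 (7.3e-16). On the Kcnq1ot1 promoter, a DMR methylated on the maternal allele, 2 sparse regions were tested. The region chr7:150484843-150485027, with a mean of 4.5 reads, was higher in RA+VitC iTreg than in naive cells (0.00046), and chr7:150483141-150483639 passed no test. A region so sparse could reach the count filter only with the help of iTreg libraries, so that call is not support on its own.

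Cd81, a tetraspanin of the lymphocyte surface at the edge of that cluster, held 40.4 and 39.4 CPM in naive cells, 40.9 and 41.1 in Treg, 35.3 and 41.1 in TGFb iTreg, and 21.8 and 26.3 in RA+VitC iTreg. The RA+VitC iTreg libraries were the lowest, with a log2 fold change of -0.73 ± 0.13 over naive cells (adjusted p = 3.9e-07). The difference from TGFb iTreg, -0.68 ± 0.18 (0.0017), was -0.55 (0.11) without TGFb iTreg replicate 2 and -0.54 (0.052) without RA+VitC iTreg replicate 1. A region over Cd81, chr7:150240060-150247789, held 91.9% of its reads. Of the sparser genes of the cluster, named after their values were seen, Cdkn1c, an inhibitor of the cell cycle with a mean of 43.9 reads, passed in Treg over naive cells (0.56, 0.013). That call was lost with DESeq2 (0.57, 0.22) and without Treg replicate 2 (0.23, 0.52) or naive replicate 1 (0.43, 0.15). Phlda2, a placental growth restrictor with a mean of 35.6 reads, passed in TGFb iTreg over naive cells (1.07, 0.0026), a call lost without TGFb iTreg replicate 2 (0.98, 0.08).

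Gnas encodes the stimulatory G-protein subunit and has several imprinted promoters, and Nespas is antisense to it. Gnas held 124 and 131 CPM in naive cells, 130 and 131 in Treg, 124 and 143 in TGFb iTreg, and 142 and 153 in RA+VitC iTreg. The RA+VitC iTreg libraries lay above the naive ones by a small margin and overlapped the TGFb iTreg. The margin was 0.21 ± 0.07 over naive cells (adjusted p = 0.0051), which fell to 0.06 (0.46) with library-size scaling and to 0.17 (0.079) without naive replicate 1 or 0.16 (0.12) without RA+VitC iTreg replicate 2. With the replicate number as a block it was 0.16 (0.11). A change not spread over the gene stood in the intronic region chr2:174140326-174140919, with 2.18 and 1.64 CPM in naive cells, 3.32 and 2.95 in Treg, 16.7 and 10.5 in TGFb iTreg, and 9.67 and 12.0 in RA+VitC iTreg. All iTreg libraries were well above the sorted cells there, by 2.81 ± 0.34 (5.6e-15) and 2.51 ± 0.30 (1.6e-15) over naive cells. Nespas, also named after its values were seen (mean of 26.9 reads), passed in Treg (0.97, 0.0013) and RA+VitC iTreg (1.08, 0.0021) over naive cells; after thinning to equal depth the values were 1.21 (0.085) and 1.18 (0.06).

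Plagl1 encodes a zinc-finger transcription factor that restrains growth, made from the paternal allele from a promoter that is methylated on the maternal allele. It held 43.1 and 36.1 CPM in naive cells, 115 and 114 in Treg, 106 and 107 in TGFb iTreg, and 126 and 144 in RA+VitC iTreg. Naive cells were the lowest by a wide gap and RA+VitC iTreg the highest. Over naive cells Plagl1 rose by 1.54 ± 0.08 in Treg (adjusted p = 4.6e-39), 1.43 ± 0.11 in TGFb iTreg (9.6e-24) and 1.77 ± 0.09 in RA+VitC iTreg (7.1e-41). The difference between the iTreg, 0.34 ± 0.10 (0.0054), was 0.24 (0.067) with library-size scaling and 0.25 (0.12) without RA+VitC iTreg replicate 2. Pull-down over input went from the 4.29th percentile of genes in naive cells to the 74.9th in Treg, 74.7th in TGFb iTreg and 85.8th in RA+VitC iTreg. All 14 tested Plagl1 regions had positive values in Treg over naive cells, and 11, 6 and 10 of them passed the test in Treg, TGFb iTreg and RA+VitC iTreg, none of them downward.

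The regions that rose lay before, on and after the start, with different levels in the groups. The region over the promoter and a 5′ UTR, chr10:12775626-12783858, holds 46.4% of the reads, with 21.7 and 19.5 CPM in naive cells, 48.6 and 51.5 in Treg, 39.3 and 38.9 in TGFb iTreg, and 56.5 and 64.0 in RA+VitC iTreg. Groups did not overlap there, with 1.29 ± 0.11 (adjusted p = 1.8e-30), 0.93 ± 0.16 (3.3e-07) and 1.55 ± 0.12 (6.2e-35) over naive cells and 0.62 ± 0.15 (0.0016; 0.41 and 0.15 after thinning to equal depth) between the iTreg. Before the gene, chr10:12763983-12765444, centred 15.6 kb before the start, held 2.44 and 0.925 CPM in naive cells, 13.7 and 13.2 in Treg, 14.9 and 15.0 in TGFb iTreg, and 9.08 and 15.2 in RA+VitC iTreg. Here all other groups shared a similar level, 3.05 ± 0.24 (5.2e-34), 3.20 ± 0.33 (7.2e-20) and 2.91 ± 0.30 (4.3e-21) above naive cells. Inside the gene, chr10:12836328-12839021, which overlaps a further 5′ UTR, held 1.41 and 0.308 CPM in naive cells, 4.22 and 3.90 in Treg, 11.9 and 14.5 in TGFb iTreg, and 20.2 and 15.8 in RA+VitC iTreg. There the iTreg stood above Treg as well as naive cells, with 2.31 ± 0.37 (2.9e-08; 1.91 and 0.13 after thinning), 4.02 ± 0.39 (1.4e-22) and 4.46 ± 0.31 (1.7e-45) over naive cells. The naive libraries alone would not have taken the region before the gene or the one inside it past the count filter. Both were tested through the groups where they were high, so these p-values are not support on their own. The difference of the iTreg from Treg was not tested.

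**Figure D4:**
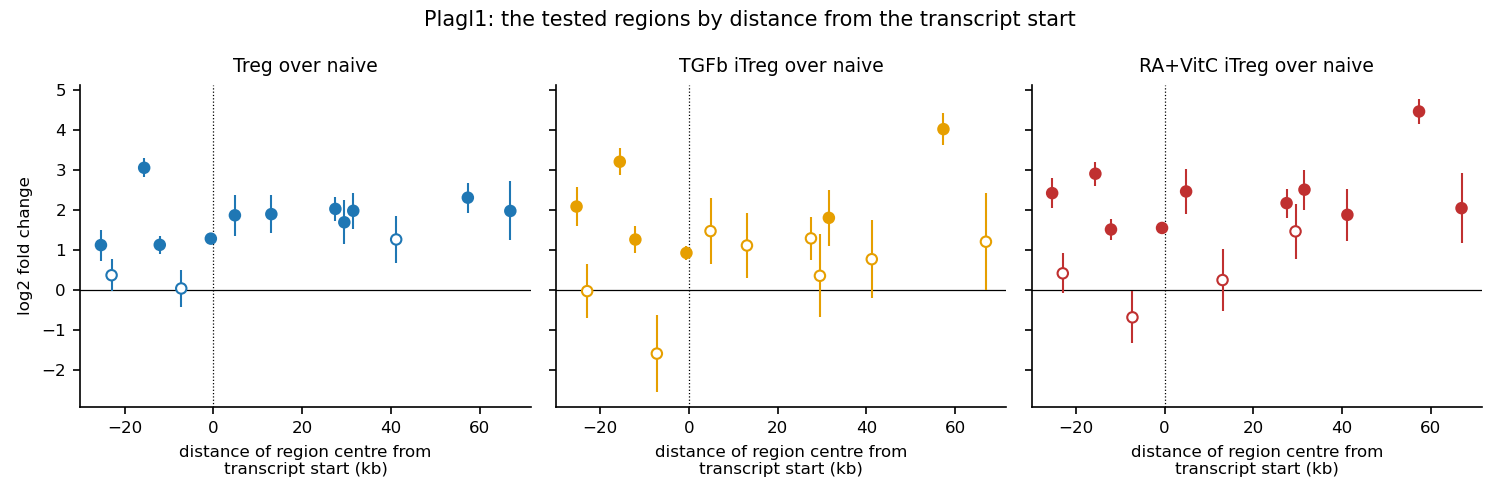
Log2 fold change over naive cells of each of the 14 tested Plagl1 regions against the distance of its centre from the transcript start in kb, with 1 panel per group; bars are standard errors and filled points have an adjusted p under 0.05. The region 15.6 kb before the start reaches 3.05, 3.20 and 2.91, and the region 57.4 kb after it 2.31, 4.02 and 4.46, in Treg, TGFb iTreg and RA+VitC iTreg. Both regions reached the count filter through the groups where they were high.

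Inpp5f, an inositol phosphatase gene with a paternally expressed variant whose internal promoter is maternally methylated, held 214 and 220 CPM in naive cells, 356 and 339 in Treg, 225 and 187 in TGFb iTreg, and 240 and 228 in RA+VitC iTreg. Only the Treg libraries were high. The Treg rise was 0.68 ± 0.05 (adjusted p = 2.2e-24), against -0.09 (0.33) in TGFb iTreg and 0.11 (0.12) in RA+VitC iTreg over naive cells. In Treg 24 of 26 tested regions had positive values and 16 passed the test upward, none downward. The intronic region after the start, chr7:135755460-135767695, picked after its values were seen, held 35.1 and 38.0 CPM in naive cells, 77.4 and 75.7 in Treg, 33.4 and 39.9 in TGFb iTreg, and 58.0 and 49.6 in RA+VitC iTreg. It rose in Treg (1.06 ± 0.09, 1.2e-28) and in RA+VitC iTreg (0.55 ± 0.12, 1.2e-05) over naive cells, and RA+VitC exceeded TGFb iTreg by 0.54 ± 0.16 (0.014). On the promoter, chr7:135753519-135754403 held 5.77 and 6.17 CPM in naive cells, 6.13 and 7.80 in Treg, 2.98 and 2.49 in TGFb iTreg, and 13.2 and 7.47 in RA+VitC iTreg. The TGFb iTreg libraries were the lowest there and the RA+VitC iTreg libraries lay above them, 1.92 ± 0.43 apart (0.00034), a gap of 1.49 with an adjusted p of 0.1 without RA+VitC iTreg replicate 1. A region further in, chr7:135771395-135776485, showed the same split, 1.09 ± 0.22 (6.7e-05), from 13.1 and 15.0 CPM in TGFb iTreg and 32.2 and 27.8 in RA+VitC iTreg.

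For 6 listed genes that have a germline DMR at one of their promoters, 17 tested regions overlapped an annotated promoter or 5′ UTR: 7 of Inpp5f, 5 of Plagl1, 2 of Kcnq1ot1 and 1 each of Airn, Peg13 and Zrsr1. Nespas, also listed with such a DMR, had no RefSeq gene identifier to match by. Its 2 tested regions were therefore not searched and are not among the 17. The Inpp5f regions include its main start, which is not the DMR of its internal promoter, and the annotation does not mark which of a gene's regions lie on a DMR. Without Inpp5f, 6 of 10 regions were higher and 0 lower in Treg over naive cells, where 13% of all regions were higher and 10.1% lower. In TGFb iTreg 3 were higher and 0 lower (13.1% and 8.28% of all), in RA+VitC iTreg 5 and 0 (21.9% and 15.8%), and between the iTreg 1 and 0 (4.60% and 1.98%). The 7 Inpp5f regions added 3 higher in Treg, 1 lower in TGFb iTreg, 1 higher and 1 lower in RA+VitC iTreg, and 1 higher between the iTreg. Plagl1 accounted for 5 of the 6 in Treg and 4 of the 5 in RA+VitC iTreg, where the other was the sparse Kcnq1ot1 region. The Peg13 promoter region, chr15:72641850-72642326 within Trappc9, and the Zrsr1 promoter region, chr11:22868851-22870621 in an intron of Commd1, passed no test. These are not independent loci, since several regions belong to 1 gene.

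Trappc9, a gene of vesicle transport that surrounds Peg13, was the only member called lower in all 4 comparisons. It held 339 and 346 CPM in naive cells, 283 and 266 in Treg, 280 and 281 in TGFb iTreg, and 239 and 235 in RA+VitC iTreg. Naive cells were the highest and RA+VitC iTreg the lowest, without overlap. The log2 fold changes were -0.32 ± 0.05 (adjusted p = 7.4e-09), -0.29 ± 0.06 (5.7e-05) and -0.53 ± 0.06 (1e-15) over naive cells and -0.25 ± 0.07 (0.0054) between the iTreg. Within it, chr15:72829874-72831292 went the other way in the iTreg, with 2.05 and 2.67 CPM in naive cells, 2.94 and 3.43 in Treg, 14.3 and 12.0 in TGFb iTreg, and 6.15 and 7.17 in RA+VitC iTreg. The TGFb iTreg were highest, 2.43 ± 0.33 (3.9e-12) over naive cells, with RA+VitC iTreg 1.47 ± 0.33 (4.7e-05; 1.13 and 0.11 after thinning). Of its 55 tested regions, 11 passed downward and 0 upward in Treg, 8 and 3 in TGFb iTreg, and 14 and 6 in RA+VitC iTreg.

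Grb10, an adaptor that dampens insulin and growth-factor signalling, held 31.6 and 34.0 CPM in naive cells, 20.4 and 19.1 in Treg, 19.9 and 36.4 in TGFb iTreg, and 16.0 and 21.5 in RA+VitC iTreg. Treg and RA+VitC iTreg lay below the naive cells and the TGFb iTreg libraries spanned the range. The log2 fold changes over naive cells were -0.74 ± 0.12 (adjusted p = 3.4e-08) and -0.81 ± 0.15 (8.6e-07). Thinned to the reads of the shallowest pull-down they were -0.13 (0.78) and -0.46 (0.18). The difference between the iTreg, -0.63 ± 0.21 (0.016), was -0.08 (0.9) without TGFb iTreg replicate 2, -0.42 (0.23) without RA+VitC iTreg replicate 1. Its 3′ region chr11:11832616-11833511 fell in every comparison with naive cells, from 7.56 and 7.91 CPM to 3.45 and 2.48 in Treg, 2.38 and 2.49 in TGFb iTreg, and 2.64 and 2.39 in RA+VitC iTreg; the TGFb iTreg call, -1.66 ± 0.43 (0.0011), was lost without TGFb iTreg replicate 2 (-1.72, 0.051).

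Among the remaining genes, Slc38a4, an amino acid transporter gene, held 35.6 and 34.0 CPM in naive cells, 31.6 and 32.1 in Treg, 56.4 and 43.1 in TGFb iTreg, and 49.4 and 49.4 in RA+VitC iTreg. The iTreg were above the sorted cells, by 0.50 ± 0.14 (adjusted p = 0.0015; 0.31 and 0.19 without TGFb iTreg replicate 1) and 0.51 ± 0.11 (3.5e-05) over naive cells. This rise stood in chr15:96935107-96939052, 50.7 kb before the start, with 3.97 and 4.62 CPM in naive cells, 3.71 and 3.54 in Treg, 20.9 and 20.0 in TGFb iTreg, and 24.6 and 23.9 in RA+VitC iTreg. The transcript holds 7.61% of the Slc38a4 reads, and over it alone the values were -1.19 (0.1) and -1.18 (0.02). Ube3a, the ubiquitin ligase of the Prader-Willi and Angelman cluster, held 73.1 and 73.9 CPM in naive cells, 64.8 and 70.2 in Treg, 78.2 and 74.8 in TGFb iTreg, and 91.3 and 79.3 in RA+VitC iTreg. Its value of 0.22 ± 0.08 in RA+VitC iTreg over naive cells (0.023) was 0.06 (0.55) with library-size scaling, 0.11 (0.43) without RA+VitC iTreg replicate 1, and 0.21 (0.084) and 0.22 (0.075) without naive replicates 1 and 2. Commd1, a copper-handling gene that contains Zrsr1, held 22.2 and 26.4 CPM in naive cells and 29.3 and 30.9 in Treg, 0.30 ± 0.11 apart (0.021), a call lost with DESeq2 (0.31, 0.22) and without naive replicate 1 (0.19, 0.28) or Treg replicate 2 (0.26, 0.14). Mest, a hydrolase-like gene made from the paternal allele and named after its values were seen (mean of 26.8 reads), passed in Treg over naive cells (0.84, 0.0033), a call lost with DESeq2 (0.85, 0.12) and without naive replicate 1 (0.71, 0.051) or Treg replicate 2 (0.69, 0.081). Impact passed no test.

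By parental allele, 8 genes with regions were listed as expressed mainly from the paternal allele, Inpp5f among them for its variant. The allele used in these T cells was not measured. The 8 genes split 5 higher to 1 lower in Treg, where 20.0% of all gene sums were higher and 19.2% lower. They split 3 to 0 in TGFb iTreg (23.4% and 18.2% of all), 4 to 1 in RA+VitC iTreg (29.2% and 26.6%) over naive cells, and 1 to 1 between the iTreg (12.4% and 10.7%). The same shares apply to the other lists of this paragraph. The 12 listed as expressed mainly from the maternal allele split 3 to 2, 4 to 1, 5 to 3 and 2 to 3. Their medians were 0.46, 0.29, 0.26 and 0.09 for paternal and 0.07, 0.14, 0.15 and 0.00 for maternal genes. The 6 long non-coding RNAs with regions split 2 to 1, 4 to 0, 5 to 1 and 1 to 1. In RA+VitC iTreg over naive cells Airn, Nespas, Rian, Mirg and H19 rose and Meg3 fell. Rian and Mirg rested on 1 sparse region each, which reached the count filter only through iTreg libraries. Their calls, counted here and among the maternal genes in both iTreg comparisons with naive cells, are not support on their own. The Meg3 fall lay in regions before its start. Beyond the 36 members, 32 of 50 other listed imprinted genes had values, with 11 higher and 6 lower in Treg (20.0% and 19.2% of all), 9 and 9 in TGFb iTreg, 7 and 10 in RA+VitC iTreg, and 3 and 5 between the iTreg. A last list of 13 genes held factors that maintain or read imprints, plus the member Plagl1, which is not such a factor. Of these, 3 were higher and 2 lower in Treg (20.0% and 19.2% of all), 3 and 3 in TGFb iTreg, 4 and 1 in RA+VitC iTreg, and 4 and 0 between the iTreg. Plagl1 is 1 of the higher genes in all 4 comparisons.

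Pull-down over input placed the genes against all others in each group. The median over 9781 genes was 0.887 in naive cells, 0.886 in Treg, 0.868 in TGFb iTreg and 0.825 in RA+VitC iTreg. Cd81 moved from the 96.6th percentile in naive cells to the 41.5th in RA+VitC iTreg. Inpp5f moved from the 25.4th in naive cells to the 80.2nd in Treg. Meg3 went from the 50.7th in naive cells to the 0.44th in Treg and the 1.51st in RA+VitC iTreg, with the 47.6th in TGFb iTreg. Gnas stayed between the 87.3th and 91.0th in all 4 groups. These ratios are descriptions and were not tested.

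**Figure D5:**
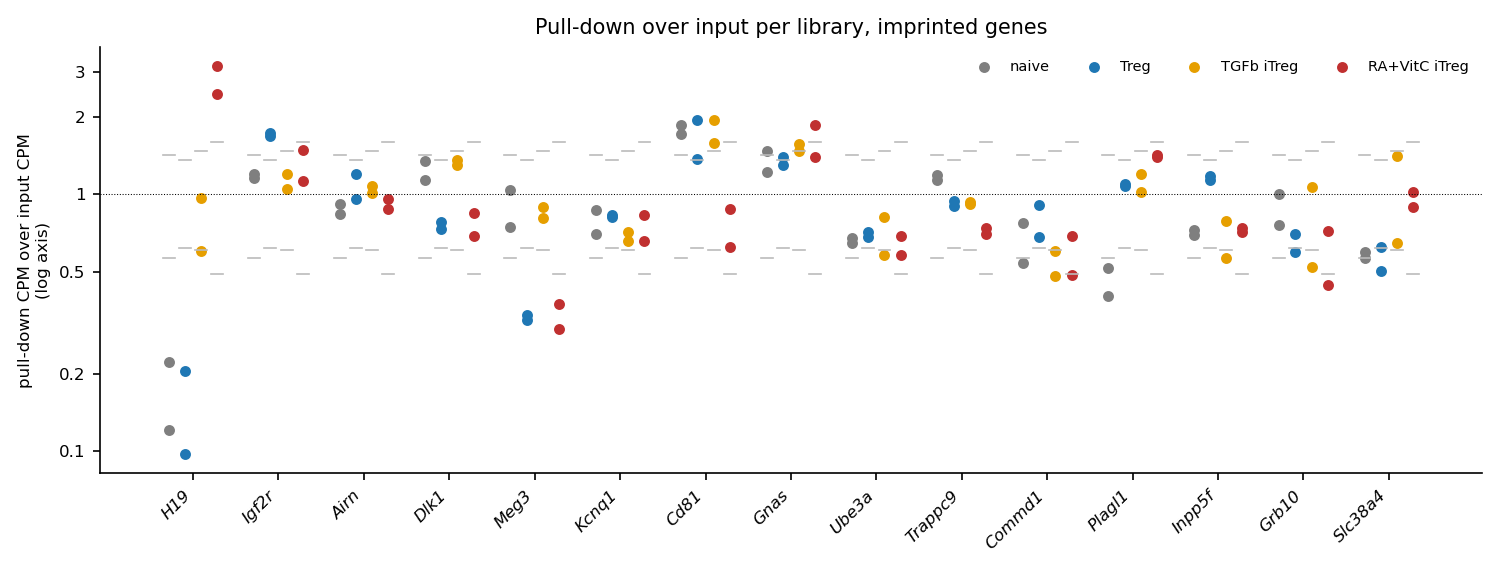
Pull-down CPM over input CPM of 15 imprinted genes in the 4 groups on a log axis; points are the 2 libraries of each group, and grey dashes mark the 10th and 90th percentile of all genes in that group. H19 climbs from 0.121 and 0.221 in naive cells to 3.16 and 2.46 in RA+VitC iTreg, and Plagl1 reaches 1.43 and 1.40 there.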

How the data were processed

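CMS-IP reads of 8 pull-down and 8 input libraries from 4 groups of mouse CD4 T cells were used as raw counts per region, as deposited by the authors, with the gene symbol and annotation of each region. The submitters' processing notes name bcl2fastq 2.20.0.442, Trim Galore 0.4.2, SAMtools 1.7, MACS2 2.1.0.20151222 and build mm9; for the aligner and the counter, the name is not given in the sources used here. The members and lists were chosen with earlier results of these data known.

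Counts were summed per gene symbol (15544 symbols; 14221 regions without a symbol left out) and also kept per region. Pull-downs were fitted together by group in edgeR 4.0.16 (R 4.3.3), with TMM scaling, filterByExpr at a minimum count of 10, quasi-likelihood tests with 4 residual degrees of freedom, and Benjamini-Hochberg adjustment over 14952 gene sums or 135412 regions. CPM uses TMM-scaled totals. Pull-down over input divides pull-down by input CPM. On simulated counts for Treg over naive cells the fit was tested before use. Genes called with a mean of at least 100 reads were named, with regions named per comparison as the 5 largest called changes with a mean of at least 20 reads, plus all regions on a promoter or 5′ UTR of a gene with a germline DMR at a promoter; exceptions are marked. Alternatives were DESeq2 1.42.0, other scalings and filters, fits of the compared groups alone, 1 thinning to 1648804 reads, leave-one-out, a replicate block and transcript regions only. Correlations of deviations between same-numbered libraries were -0.0162 and 0.00946. A count of 3 reads equals 0.308 to 1.82 CPM per pull-down, counting error only.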

Additional observations from a re-analysis of the deposited data

How the results depend on the processing

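Of 43 gene values named as called, 20 kept their direction and call under all alternatives in which they were tested. So did 25 of 46 region values. A gene or region dropped by a filter was not counted as lost. Thinning tested 20 imprinted genes and 76 regions, and the filter at a mean of 50 reads 15 genes and 33 regions. All 6 reversals came from summing only regions that overlap the transcript: Dlk1 in RA+VitC over TGFb iTreg (1.11), Meg3 in Treg and RA+VitC iTreg over naive cells and RA+VitC over TGFb iTreg (0.531, 0.638 and 1.65), and Slc38a4 in TGFb and RA+VitC iTreg over naive cells (-1.19 and -1.18). These sums rest mostly on intergenic regions.

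Counts of imprinted genes moved as follows. In Treg over naive cells, genes higher were 5 with DESeq2, 5 with a filter at a mean of 50 reads and 4 after thinning, and genes lower 2 after thinning. In TGFb iTreg over naive cells, genes higher were 4 with a mean of 50 reads, and genes lower were 2 with transcript regions only. In RA+VitC iTreg over naive cells, thinning gave 5 higher and 3 lower. In RA+VitC over TGFb iTreg, genes lower were 3 with DESeq2, with thinning and with transcript regions only. With the replicate number as a replicate block, genes lower in TGFb iTreg over naive cells were 2, and the named gene calls lost were Gnas in RA+VitC iTreg (0.165) and Rian in TGFb iTreg (1.46); the numbers were not shown to pair the libraries.

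Counts of imprinted regions moved more. With DESeq2, Treg gave 17 higher and 4 lower, TGFb iTreg 3 lower, RA+VitC iTreg 14 lower, and RA+VitC over TGFb iTreg 6 higher and 2 lower. With a mean of 50 reads the pairs of higher and lower were 15 and 5, 3 and 3, 12 and 11, and 5 and 3, from fewer regions tested. Thinning gave 10 and 2, 14 and 3, 17 and 13, and 7 higher. Library-size scaling gave 62 lower in RA+VitC iTreg over naive cells, and 8 higher and 10 lower between the iTreg.

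Leaving out each library in turn gave 5 to 8 genes higher and 4 to 4 lower in Treg, 4 to 7 and 1 to 2 in TGFb iTreg, 8 to 10 and 5 to 5 in RA+VitC iTreg, and 3 to 4 and 2 to 5 between the iTreg. For regions the ranges were 31 to 51 higher and 9 to 27 lower, 18 to 23 and 4 to 15, 36 to 52 and 19 to 41, and 8 to 13 and 0 to 6. Scaling pull-down and input to the median ratio divided each ratio by 0.731 to 0.836, depending on the library. Depth limits sparse regions most: 72 of 298 were not tested. The cause of the other changes was not tested.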

Other observations

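Some regions bear on members that carry no region of their own. Nap1l5, a paternally expressed gene within Herc3, was the nearest start of 10 Herc3 regions, of which 9 were tested: 0 were higher and 1 lower in Treg over naive cells, 2 and 0 in TGFb iTreg, 1 and 0 in RA+VitC iTreg, and 0 and 1 between the iTreg. Igf2 was the nearest start of 1 region of Igf2os, too sparse to test.

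Among imprinted genes that are not members, Th, which encodes tyrosine hydroxylase and lies beside Igf2, held 2.66 and 2.13 CPM in naive cells, 5.91 and 5.42 in Treg, 10.3 and 9.87 in TGFb iTreg, and 11.9 and 11.1 in RA+VitC iTreg. Every iTreg library was above every Treg library and those above the naive ones. Ddc, the aromatic amino acid decarboxylase gene next to Grb10, held 131 and 144 CPM in naive cells, 187 and 177 in Treg, 164 and 191 in TGFb iTreg, and 238 and 223 in RA+VitC iTreg, while Grb10 had its lowest library in RA+VitC iTreg. Slc22a2, a cation transporter gene of the Igf2r cluster, held 48.1 and 53.8 CPM in naive cells, 81.4 and 70.6 in Treg, 69.2 and 70.2 in TGFb iTreg, and 106 and 83.2 in RA+VitC iTreg. All 3 genes passed the test upward in each comparison with naive cells, and they were chosen after their values were seen.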
